A study of Mus musculus with 6 samples.

Results

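The genes described here encode the signalling subunits of the T cell receptor and the kinases that bind them: the CD3 chains Cd3d, Cd3e and Cd3g, the zeta chain Cd247, the Fc receptor gamma chain Fcer1g, and the kinases Zap70 and Syk. They were taken by symbol from the deposited gene count and FPKM tables, and all 7 were found among the 24982 symbols of the count table. RNA came from natural regulatory T cells (nTreg cells), sorted as CD4+CD25+CD127lo cells from mouse spleen and stimulated for 72 h with antibodies to CD3 (2 µg/ml) and CD28 (2 µg/ml) and with recombinant interleukin-2 (10 ng/ml). The knockout group (KO) carried the genotype Srsf1-flox/flox dLck.Cre, in which the distal promoter of the T cell kinase gene Lck drives the recombinase, so that the splicing factor Srsf1 is deleted in T cells. The other group was labelled WT, and whether it carried the Cre transgene or floxed alleles is not given in the labels. Both groups had the strain label B6.129 and an age of 8 to 10 weeks, and each had 3 libraries from 3 mice per genotype. One label field calls the material effector CD4 T cells, whereas the titles and the sorting protocol call it nTreg cells.

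The T cell receptor's antigen-binding chains have no signalling tail of their own. The signal is carried by the CD3 chains and the zeta dimer, whose tails hold immunoreceptor tyrosine-based activation motifs (ITAMs): when both tyrosines of a motif are phosphorylated by Lck, the paired SH2 domains of Zap70 dock there. Fcer1g, best known as the signalling chain of Fc receptors on myeloid, mast and NK cells, is a relative of zeta that can take its place in the receptor complex, and Syk is the kinase that usually reads its motif. CD247 is a known target of SRSF1 in human T cells, where a switch from zeta and ZAP70 to Fc receptor gamma and SYK has been described in systemic lupus erythematosus.

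The ITAMs are shown as coding sequence because they are the feature that the receptor chains share and in which zeta and Fc receptor gamma differ in number. Each was found in the principal coding transcript of GENCODE release M21 (GRCm38) as a tyrosine codon, 2 further codons and a leucine or isoleucine codon, repeated once after a gap of 6 to 8 codons. The sequences run 5′ to 3′ on the coding strand, codons are counted from 1 at the start codon, and capitals mark the tyrosine codons and the leucine or isoleucine codons.
Cd247, codons 72 to 86: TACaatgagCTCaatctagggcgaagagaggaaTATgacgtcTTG
Cd247, codons 111 to 126: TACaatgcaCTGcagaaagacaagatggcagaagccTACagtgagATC
Cd247, codons 142 to 156: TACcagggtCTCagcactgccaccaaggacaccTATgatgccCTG
Fcer1g, codons 65 to 79: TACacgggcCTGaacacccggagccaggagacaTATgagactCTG
Cd3d, codons 149 to 163: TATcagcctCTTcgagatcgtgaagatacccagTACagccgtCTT
Cd3e, codons 170 to 184: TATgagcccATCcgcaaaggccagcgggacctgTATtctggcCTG
Cd3g, codons 160 to 174: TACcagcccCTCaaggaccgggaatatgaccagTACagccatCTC

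Zeta thus held 3 motifs in 164 codons, and Fc receptor gamma 1 motif in 86 codons. Each CD3 chain held 1, and neither kinase held any. Of 21726 principal mouse coding sequences searched in the same way, 617 (2.84%) held at least 1 such pattern and 4 held 3 or more. When the coding sequences were translated and aligned end to end, 35 of 86 aligned positions were identical between zeta and Fc receptor gamma (40.7%), and 343 of 598 between Syk and Zap70 (57.4%). Cd3d and Cd3g were more alike (45.2%) than either was to Cd3e (27.0% and 29.2%). The 5 other complete coding transcripts of Cd247 in the annotation held 2 motifs each, and a second complete transcript of Fcer1g held 0. The deposited tables give 1 value per gene and do not separate these transcripts. In the annotation, Cd3g, Cd3d and Cd3e are neighbours on chromosome 9, and Cd247 overlaps the protein-coding gene Pou2f1 on the opposite strand of chromosome 1. Cd3e and Zap70 also overlap predicted genes, and Cd3d, Cd3g, Fcer1g and Syk overlap none. Since nothing here states whether the counting used strand, reads of such overlaps cannot be told apart.

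Total gene counts ran from 23263741 to 27562046 in WT and from 10183626 to 20373649 in KO libraries, so that every KO library was shallower. KO replicate 1 stood apart, with correlations of log2 CPM across genes of at most 0.925 with any other library, against a best match of 0.970 to 0.988 for each of the other 5. Srsf1 itself was at 755 to 1230 CPM in WT and 438 to 812 CPM in KO libraries (CPM are counts scaled to library size with TMM factors), with WT replicate 3 below KO replicates 2 and 3. Directions below follow the labels. Of 7 T cell and Treg markers, 4 (Foxp3, Cd4, Cd5 and Ikzf2) had every KO library above every WT library. Of all tested genes, 7.48% lay above in this way and 8.18% below. The other markers, Ctla4 (log2 fold change -0.79), Cd2 (-0.18) and Il2ra (-0.09), overlapped between the groups. Foxp3, which defines Treg cells, ran from 104 to 159.6 CPM in WT and from 357 to 464 CPM in KO (log2 fold change +1.68, SE 0.25, 3.21-fold, edgeR adjusted p = 0.197, DESeq2 adjusted p = 1.59e-06). The sum of this list overlapped between the groups (5699 to 8818 CPM in WT, 5456 to 9434 CPM in KO), and Il2ra alone made up 4073 to 6566 CPM of it in WT and 3300.3 to 6880 CPM in KO. Cd8a and Cd8b1 together were at 193 to 269 CPM in WT and 38.9 to 60.5 CPM in KO. Cd8b1 had the smallest edgeR p of all tested genes (log2 fold change -2.68, SE 0.23, edgeR adjusted p = 0.0166). For Cd8a the log2 fold change was -1.92 (SE 0.29, edgeR adjusted p = 0.197, DESeq2 adjusted p = 3.41e-06).

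Fcer1g showed the widest separation of the 7 genes. Its counts were 11, 24 and 46 in WT replicates 1, 2 and 3, and 143, 67 and 72 in KO replicates 1, 2 and 3, although the KO libraries were shallower. Scaled to library size, the WT libraries had 0.497, 0.941 and 1.65 CPM against 6.54, 5.06 and 7.22 CPM in the KO libraries. Every KO library lay above every WT library. With 95% exact binomial intervals, which cover counting error only, WT replicate 3 lay between 1.21 and 2.20 CPM and KO replicate 2 between 3.92 and 6.42 CPM, so the nearest libraries of the groups also stayed apart. The mean was 1.03 ± 0.582 CPM in WT and 6.27 ± 1.11 CPM in KO (SD, n = 3 each).

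The fitted log2 fold change of Fcer1g in KO against WT was +2.59 (SE 0.50, 95% interval 1.46 to 3.72), a 6.01-fold difference. In edgeR's quasi-likelihood test its adjusted p over the 11772 genes tested was 0.308, above the threshold of 0.05, with an unadjusted p of 0.000627. DESeq2's Wald test gave an adjusted p of 0.00012 and called it. By edgeR's adjusted p, 0 of the 7 genes were called, where 0.017% of all tested genes were (2 genes, both lower in KO, and 884 at an unadjusted p under 0.05). By DESeq2, Fcer1g alone of the 7 was called higher in KO, against 0.799% of all tested genes in that direction. With any 1 library left out, the log2 fold change of Fcer1g ran from +2.25 (without WT replicate 1) to +3.09 (without WT replicate 3), and edgeR's adjusted p from 0.210 to 0.999. Without both WT replicate 3 and KO replicate 1 it was +3.08, with an edgeR adjusted p of 0.0253. WT replicate 3 was the highest WT library for Fcer1g, so leaving it out widens the difference. In that setting 80 of 11549 tested genes were called. In bulk RNA, more cells of a type and more RNA per cell cannot be told apart.

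**Figure D1:**
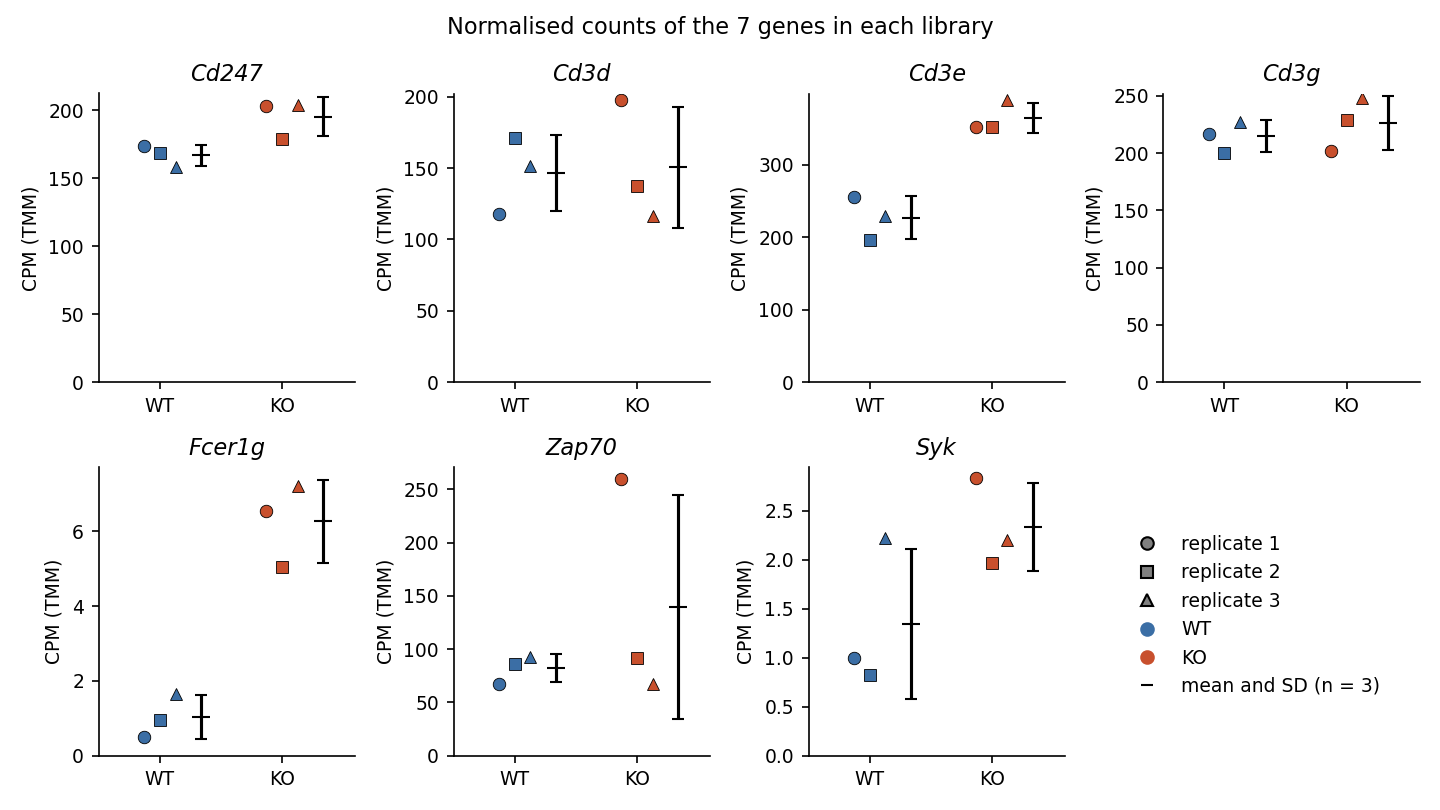
TMM-normalised counts (CPM, vertical axes starting at 0) of the 7 genes, 1 panel per gene. Points are the 3 WT (blue) and 3 KO (orange) libraries with a symbol for each replicate, and bars give the mean and SD. Every KO library lies above every WT library for Cd247, Cd3e and Fcer1g, and KO replicate 1 alone is high for Zap70 at 259.8 CPM.

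Because Fcer1g is a gene of other blood cells, their markers were read in the same libraries. Of 10 macrophage and monocyte markers 9 were in the table, and their summed level was 1.63 to 4.70 CPM in WT and 5.06 to 9.05 CPM in KO, with every KO library above every WT library. Cd68 held most of that sum (2.68 CPM in WT and 5.96 CPM in KO on average), whereas Adgre1, Itgam, Cd14 and Spi1 had at most 4 counts in any library and Csf1r, Lyz2 and C1qa were listed at 0. The ribosomal protein gene Rpl26, used by every cell, was also listed at 0 in the count table while the FPKM table gave it values above 0, so a 0 in the count table does not by itself show absence. For Csf1r and C1qa the FPKM table gave 0 in every library as well. Lyz2 was at 0 FPKM except in WT replicate 2, with 0.0344 FPKM. Mast cell and basophil markers overlapped (1.81 to 10.2 CPM in WT, 3.31 to 8.96 CPM in KO), and the largest contributor on average, Kit, had means of 4.23 CPM in WT and 4.72 CPM in KO. Fcer1a, the alpha chain of the IgE receptor, had at most 5 counts and its beta chain Ms4a2 at most 10. The sum of 9 NK and innate-like T cell markers overlapped too, at 74.5 to 359 CPM in WT and 125 to 404 CPM in KO, and in replicate 3 of both groups most of it was Gzma (315 CPM in WT, 321 CPM in KO). Of the 9 genes, 3 (Ncr1, Klrb1c and Zbtb16) had every KO library above every WT library, where 7.48% of all tested genes did. Ncr1 had too few counts to be tested. In the lists of other blood cells, Adgre1, Cd68, Gata2, Xcr1 and Pf4 lay above without overlap too, and of these only Cd68 was tested. The NK receptor gene Klrb1c had 0.181, 0.196 and 0.789 CPM in the WT libraries against 0.869, 1.89 and 1.91 CPM in the KO libraries (log2 fold change +1.94, SE 0.69, edgeR adjusted p = 0.618). Zbtb16, the transcription factor PLZF of innate-like T cells, averaged 6.31 CPM in the WT libraries and 23.0 CPM in the KO libraries, which did not overlap. The log2 fold change of Zbtb16 was +1.87 (SE 0.38, edgeR adjusted p = 0.331). DESeq2 called Zbtb16 higher in KO (adjusted p = 0.000967) but not Klrb1c (adjusted p = 0.317).

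Low levels were measured for the remaining cell types. B cell markers summed to 3.41 to 4.66 CPM in WT and 1.70 to 6.03 CPM in KO, dendritic cell markers to 1.99 to 2.67 and 2.31 to 5.17 CPM, and neutrophil markers to 0 to 1.65 and 0.301 to 0.906 CPM. Platelet markers summed to 0.0392 to 0.395 CPM in WT and 0.401 to 2.24 CPM in KO, the highest value being that of KO replicate 1. The nearest libraries were WT replicate 3 with 11 counts and KO replicate 3 with 4 counts, and their order turned with library size alone (0.399 and 0.393 CPM) and with upper-quartile scaling, so that the groups then overlapped (scalings of the marker sums were compared after their values were seen). The part of the macrophage, NK and platelet markers in the Fcer1g difference was not tested. Without KO replicate 1, which had the highest macrophage and platelet sums, the log2 fold change of Fcer1g was +2.55. KO replicates 2 and 3 still had macrophage sums (5.06 and 6.12 CPM) above every WT library.

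Receptors that signal through Fcer1g were hardly measured in these cells. Of 13 such genes, all in the table, none passed the filter on low counts, and 5 (Clec4n, Gp6, Pira1, Pira2 and Lilra5) were listed at 0 counts in each library. In FPKM, Clec4n, Gp6 and Lilra5 were at 0 as well. Pira1 and Pira2 were above 0 only in KO replicate 2, at 0.00637 and 0.00725 FPKM. Ncr1, which encodes the NK cell receptor NKp46, reached 7, 27 and 3 counts in KO replicates 1, 2 and 3 against 3, 1 and 1 counts in WT. Fcgr3, a low-affinity receptor for IgG, had 4, 6 and 12 counts in WT and 8, 0 and 4 counts in KO. The other receptors of the list with any counts, Fcer1a, Ms4a2, Fcgr1, Fcgr4, Clec4e and Clec4d, stayed at or below 10 counts per library. Of the related signalling adaptors, Tyrobp (DAP12) had 1, 1 and 1 counts in WT and 10, 3 and 0 in KO. For Hcst (DAP10) the 3 WT libraries had 0.723, 0.667 and 1.65 CPM, and KO replicates 1, 2 and 3 had 8.00, 1.06 and 1.40 CPM, so that only KO replicate 1 was high (log2 fold change +1.80, SE 0.81, edgeR adjusted p = 0.663). The B cell receptor chain Cd79a had at most 3 counts and the pre-T cell receptor chain Ptcra at most 3, and Cd79b averaged 3.09 CPM in WT and 2.53 CPM in KO.

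For zeta, the chain that Fc receptor gamma can replace, no KO library lay below a WT library. Cd247 had 174, 168 and 158 CPM in the WT libraries (replicates 1, 2 and 3). The KO libraries had 203, 179 and 204 CPM. All KO libraries lay above all WT libraries, by a narrow margin between WT replicate 1 and KO replicate 2, and this order was the same with DESeq2 size factors, upper-quartile scaling or library size alone. The 95% exact binomial intervals of these nearest libraries overlapped, at 168 to 179 CPM in WT replicate 1 and 172 to 186 CPM in KO replicate 2. The mean was 167 ± 7.90 CPM in WT and 195 ± 14.4 CPM in KO (SD, n = 3 each). The log2 fold change was +0.23 (SE 0.20, 95% interval -0.24 to 0.69) and the edgeR adjusted p was 0.775. Pou2f1, the gene that overlaps Cd247 on the other strand, was at 96.4 to 121 CPM in WT and 67.2 to 118 CPM in KO, with overlap between the groups (log2 fold change -0.20, edgeR adjusted p = 0.834).

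Within each library, the count ratio of Fcer1g to Cd247 gives a comparison that scaling between libraries can move only through the prior count added before the logarithm. On the log2 scale it was -8.38, -7.45 and -6.56 in WT replicates 1, 2 and 3, and -4.95, -5.14 and -4.82 in KO replicates 1, 2 and 3. The KO libraries lay close together and above the more scattered WT libraries. The groups differed by +2.49, or 5.63-fold (exact two-sided permutation p = 0.1, the smallest that 3 against 3 libraries allow; 0.3 after Benjamini-Hochberg adjustment over the 3 ratios of this kind). In FPKM, which corrects for transcript length, Fcer1g made up 0.946%, 1.74% and 2.98% of the sum of Fcer1g and Cd247 in WT and 9.13%, 8.55% and 10.1% in KO. Zeta was therefore the larger part of the pair in every library, KO included.

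**Figure D2:**
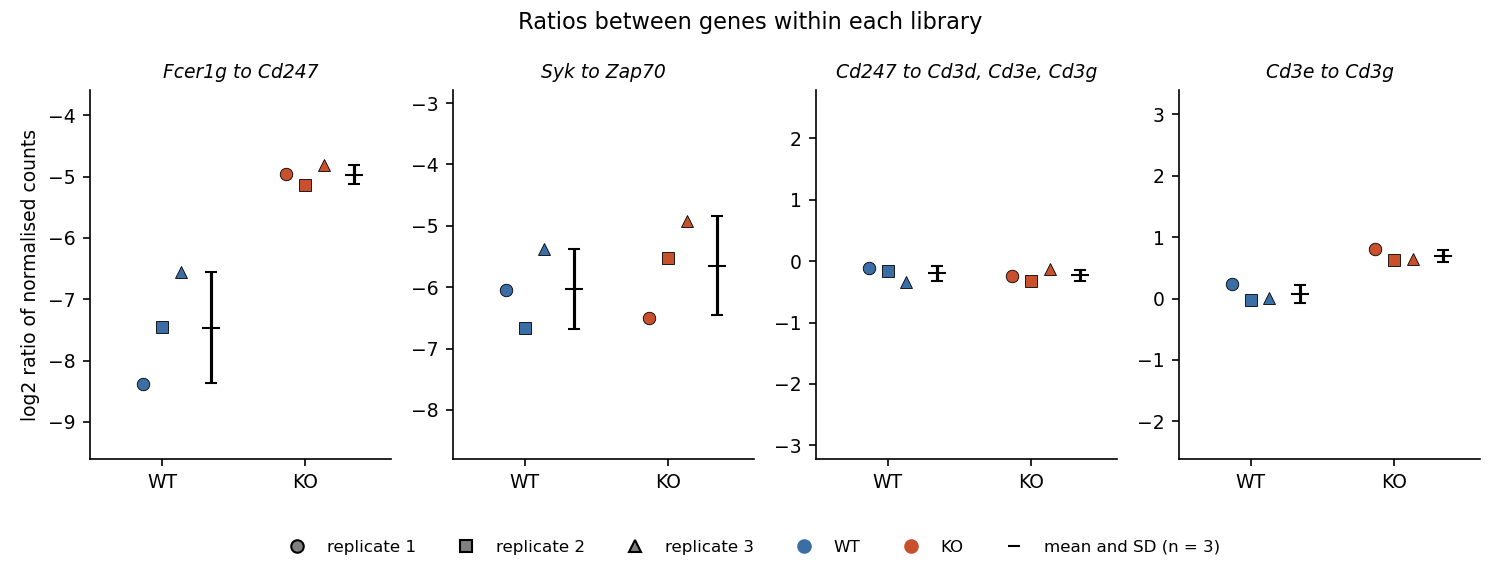
Log2 ratios of normalised counts between genes within each library (vertical axes, each spanning the same range of log2 units), for WT (blue) and KO (orange) libraries with a symbol for each replicate and bars for mean and SD. The ratios of Fcer1g to Cd247 and of Cd3e to Cd3g do not overlap between the groups, and those of Syk to Zap70 and of Cd247 to the 3 CD3 chains do.

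Of the CD3 chains, Cd3e had groups that did not overlap, and Cd3d and Cd3g had groups that did. Cd3e, the chain present in both CD3 dimers, had 255, 197 and 229.6 CPM in the WT libraries (replicates 1, 2 and 3). The KO libraries had 352, 352 and 389 CPM. All KO libraries exceeded all WT libraries by a wide margin, with a log2 fold change of +0.68 (SE 0.22, 95% interval 0.18 to 1.18). It was not called by edgeR (adjusted p = 0.545, unadjusted 0.0130) or by DESeq2 (adjusted p = 0.163). With 1 library left out the log2 fold change stayed between +0.58 and +0.76.

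Cd3g, which pairs with Cd3e in one of the dimers, had 217, 199.9 and 228 CPM in the WT libraries against 202, 229 and 248 CPM in the KO libraries. The groups overlapped, and the log2 fold change was +0.08 (SE 0.21, 95% interval -0.41 to 0.56, edgeR adjusted p = 0.916). Cd3d, the partner of Cd3e in the other dimer, had 118, 171 and 151 CPM in the WT libraries against 198, 137 and 116 CPM in the KO libraries. KO replicate 1 was the highest and KO replicate 3 the lowest of the 6 libraries, so its log2 fold change of +0.04 (SE 0.27, 95% interval -0.58 to 0.66, edgeR adjusted p = 0.968) averages libraries that disagree, and without KO replicate 1 it was -0.21.

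The ratio of Cd3e to Cd3g, chosen after the values were seen, was 0.24, -0.02 and 0.01 on the log2 scale in WT replicates 1, 2 and 3, and 0.80, 0.62 and 0.65 in KO replicates 1, 2 and 3. The groups did not overlap and differed by +0.62, or 1.53-fold (exact two-sided permutation p = 0.1, the smallest possible here). Against Cd3d, also chosen afterwards, the ratio of Cd3e ran from 0.21 to 1.12 in WT and from 0.83 to 1.74 in KO, with overlap (difference +0.67, exact two-sided permutation p = 0.2). Cd3e made up 36.0%, 28.8% and 31.0% of the summed FPKM of the 3 chains in WT and 40.6%, 41.5% and 43.8% in KO. The ratio of Cd247 to the mean of the 3 CD3 chains, in contrast, averaged -0.20 ± 0.12 in WT and -0.23 ± 0.09 in KO on the log2 scale (SD, n = 3 each). The difference of -0.03 was smaller than the spread of either group (exact two-sided permutation p = 0.8, adjusted p = 0.8 over the 3 ratios).

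Zap70, the kinase that docks on phosphorylated ITAMs of the receptor, was high in a single KO library. The WT libraries had 67.6, 86.4 and 93.1 CPM (replicates 1, 2 and 3). The KO libraries had 259.8, 91.2 and 67.5 CPM. KO replicates 2 and 3 lay within or at the edge of the WT range. The log2 fold change of +0.76 (SE 0.47, edgeR adjusted p = 0.724) became -0.05 without KO replicate 1. The FPKM table gave the same order, with 106 FPKM in KO replicate 1 and 28.6 to 46.2 FPKM in the other 5 libraries.

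The 2 deposited tables differed somewhat for Zap70 in that library. The count per unit of FPKM, relative to the median gene of the library, was 0.770 in KO replicate 1 and 0.571 to 0.632 in the other 5. For the CD3 chains, Cd247 and Syk this quantity varied by at most 1.03-fold over the 6 libraries, for Fcer1g by 1.12-fold and for Zap70 by 1.35-fold.

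Syk, the relative of Zap70 that serves B cell and Fc receptors, was near the limit of measurement. Its counts were 22, 21 and 62 in WT replicates 1, 2 and 3 and 62, 26 and 22 in KO replicates 1, 2 and 3, or 0.994, 0.824 and 2.22 CPM in the WT libraries against 2.83, 1.96 and 2.21 CPM in the KO libraries. WT replicate 3 lay among the KO libraries. Its 95% exact binomial interval of 1.71 to 2.85 CPM overlapped those of KO replicates 2 (1.28 to 2.87 CPM) and 3 (1.38 to 3.34 CPM). The log2 fold change was +0.79 (SE 0.50, 95% interval -0.35 to 1.93, edgeR adjusted p = 0.730), and +1.35 without WT replicate 3.

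Syk stayed a small fraction of the kinase pair. It made up 0.470%, 0.293% and 0.747% of the summed FPKM of Syk and Zap70 in WT and 0.456%, 0.672% and 1.10% in KO. The log2 count ratio of Syk to Zap70 averaged -6.03 ± 0.65 in WT and -5.65 ± 0.80 in KO (SD, n = 3 each). The difference of +0.38 lay within the spread of either group (exact two-sided permutation p = 0.6, adjusted p = 0.8 over the 3 ratios). Whether the shift of Fcer1g differed from that of Syk was not tested.

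**Figure D3:**
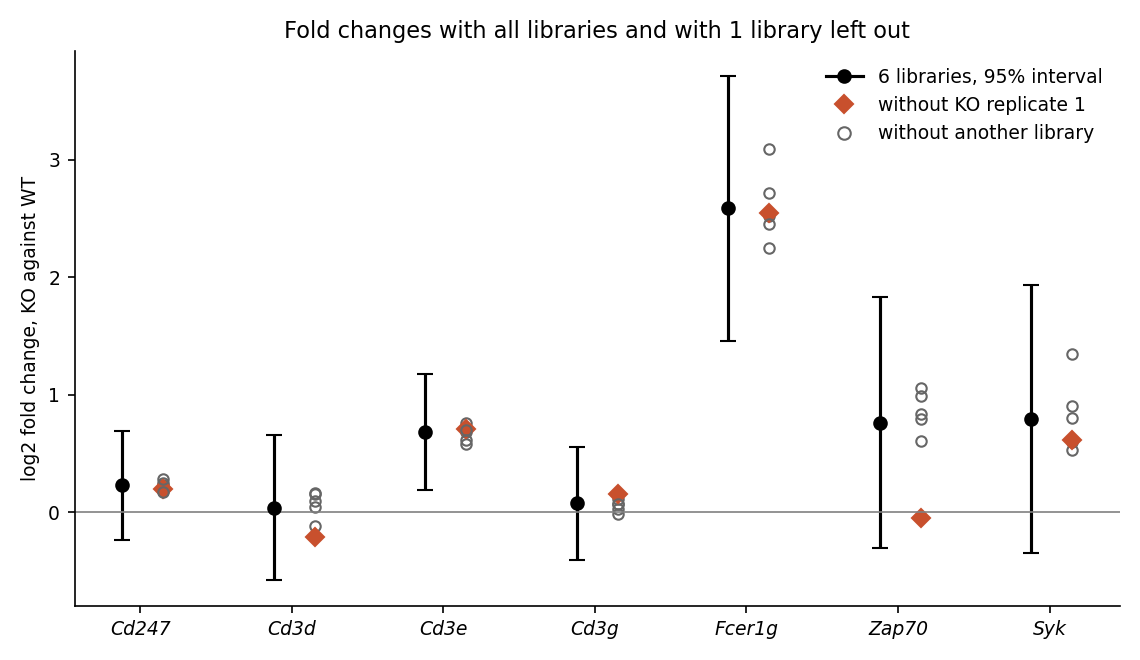
Log2 fold changes of KO against WT (vertical axis) for the 7 genes. Black points with bars are the edgeR estimates from 6 libraries with 95% intervals, diamonds the estimates without KO replicate 1, and open circles those without another library. The estimate for Zap70 moves from +0.76 to -0.05 without KO replicate 1, while those for Fcer1g stay between +2.25 and +3.09.

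Levels were compared between genes in FPKM, per transcript length. Cd3g ran from 171 to 202 FPKM in WT and from 190.1 to 204 FPKM in KO, and Cd3e from 114 to 138 FPKM in WT and from 196 to 230.4 FPKM in KO. Cd3g was the highest of the 7 in all 3 WT libraries, and Cd3e was the highest in all 3 KO libraries. Cd3d (70.8 to 140.3 FPKM) and Cd247 (80.6 to 113 FPKM) overlapped, each being above the other in 3 of 6 libraries. Zap70 (28.6 to 106 FPKM) was below Cd247 in every library, although its highest value exceeded the lowest of Cd247. Fcer1g followed at 0.769, 1.49 and 2.50 FPKM in WT and between 8.09 and 11.3 FPKM in KO. Syk was the lowest in every library, from 0.125 to 0.348 FPKM in WT and from 0.289 to 0.487 FPKM in KO.

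**Figure D4:**
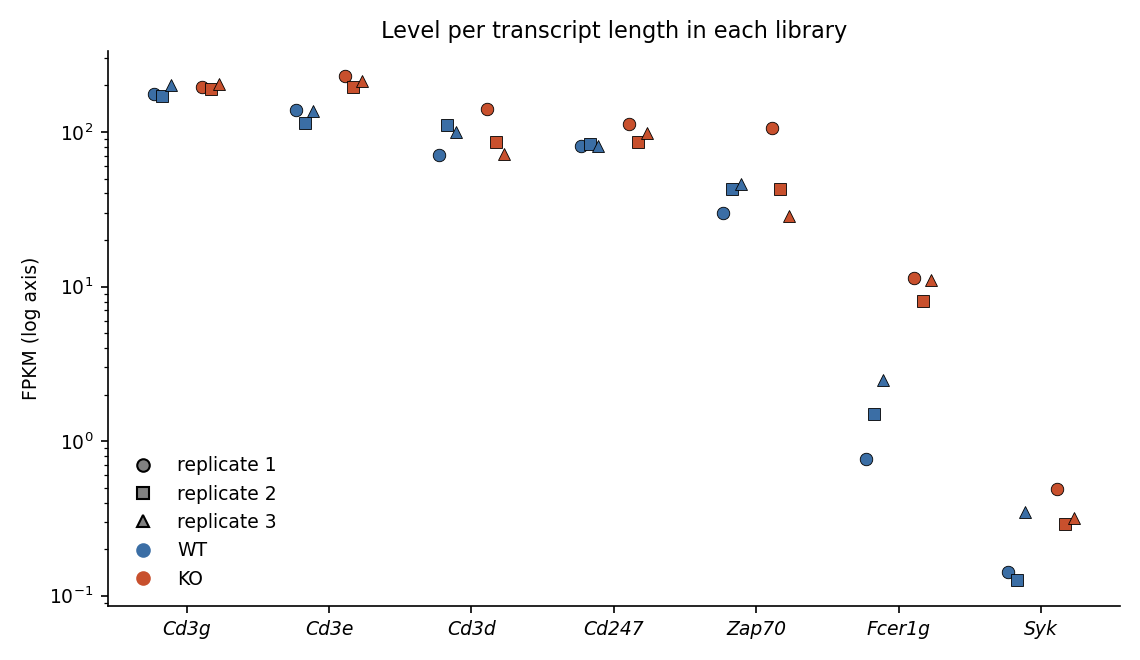
FPKM of the 7 genes in each library (logarithmic vertical axis), WT in blue and KO in orange, with a symbol for each replicate and the genes ordered by mean level. Cd3g leads in WT and Cd3e in KO, Fcer1g lies at 0.769 to 2.50 FPKM in WT and 8.09 to 11.3 FPKM in KO, and Syk stays below 0.5 FPKM.

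Over the 7 genes, which were all tested, 3 had every KO library above every WT library (Cd247, Cd3e and Fcer1g) and 0 had every KO library below, where 7.48% of all tested genes lay without overlap above and 8.18% below (15.7% in either direction). At an unadjusted edgeR p under 0.05, 2 of the 7 were higher in KO (Cd3e and Fcer1g), against 4.75% of all tested genes in that direction, and 0 were lower, against 2.76% (7.51% in either direction). The fitted log2 fold change was above 0 for all 7, as for 51.6% of all tested genes. The median was +0.68 for the 7 and +0.02 for all tested genes. Without KO replicate 1, the members above 0 numbered 5 and their median was +0.20, since Cd3d and Zap70 then lay below 0.

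The patterns most like those of Fcer1g and Cd247 were sought among 9993 tested genes with a mean of at least 2 CPM, by Pearson's r of log2 CPM over the 6 libraries. These values describe 6 points that share their grouping. For Fcer1g the closest were the granzyme gene Gzmc (r = 0.981), Mxd1 (0.976), which encodes a partner of Max in the Myc network, and Akip1 (0.974). Their log2 fold changes were +2.02, +0.64 and +0.10, so of the 3 only Gzmc differed between the groups by a size near that of Fcer1g. Gzmc had 32.4, 47.5 and 81.5 CPM in the WT libraries (replicates 1, 2 and 3). The KO libraries had 187, 153 and 313 CPM, and within WT replicate 3 was the highest for both genes. For Cd247 the closest were Fbxo34 (r = 0.986), Nde1 (0.970) and Pcyox1l (0.968), with log2 fold changes of +0.27, +0.27 and +0.76.

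The rest of the receptor-proximal pathway lay on both sides of 0. Of 42 listed genes for kinases, adaptors, coreceptors and inhibitors, all were tested, 22 lay above 0 and 20 below, and the median log2 fold change was +0.05. Without WT replicate 3, 29 lay above 0. By edgeR's adjusted p 0 were called, and by DESeq2 1 was called higher and 0 lower. At an unadjusted edgeR p under 0.05, 5 of 42 were higher and 4 lower, where 4.75% and 2.76% of all tested genes were. Libraries did not overlap for 8 genes higher in KO and 5 lower, where 7.48% and 8.18% of all tested genes did not.

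The gene with the smallest p in the list was Txk, a Tec family kinase, with 2.58, 3.92 and 2.55 CPM in the WT libraries against 7.22, 17.3 and 9.73 CPM in the KO libraries (log2 fold change +1.92, SE 0.42, edgeR adjusted p = 0.331). It is the gene that DESeq2 called (adjusted p = 0.0036). Ubash3b, a phosphatase that acts on Zap70 and Syk, followed with 28.6, 29.0 and 32.0 CPM in the WT libraries against 54.2, 56.1 and 44.1 CPM in the KO libraries (+0.78, SE 0.22, edgeR adjusted p = 0.473). Cd5, an inhibitory coreceptor of the T cell receptor, had 192, 181 and 151 CPM in the WT libraries against 509.7, 365 and 228 CPM in the KO libraries (+1.07, SE 0.31, edgeR adjusted p = 0.482). In the other direction lay Cblb, a ubiquitin ligase that restrains receptor signals, with 238, 232 and 267 CPM in the WT libraries against 112, 144 and 164 CPM in the KO libraries (-0.81, SE 0.23, edgeR adjusted p = 0.480). The adaptor Grap2 (GADS), which links Lat to Lcp2, had 119, 117 and 167 CPM in the WT libraries against 88.8, 74.1 and 82.4 CPM in the KO libraries (-0.72, SE 0.23, edgeR adjusted p = 0.562). Themis, which tunes receptor signalling during thymic development, had 298, 277 and 576 CPM in the WT libraries against 47.5, 147 and 201 CPM in the KO libraries (-1.54, SE 0.52, edgeR adjusted p = 0.573). For each of these 6 genes the groups did not overlap. Lck, the kinase that phosphorylates the ITAMs shown above, was at 358 to 432 CPM in WT and 343 to 491 CPM in KO (log2 fold change -0.01, SE 0.24, edgeR adjusted p = 0.991), and the Zap70 substrates Lat (+0.35) and Lcp2 (+0.30) also overlapped between the groups.

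**Figure D5:**
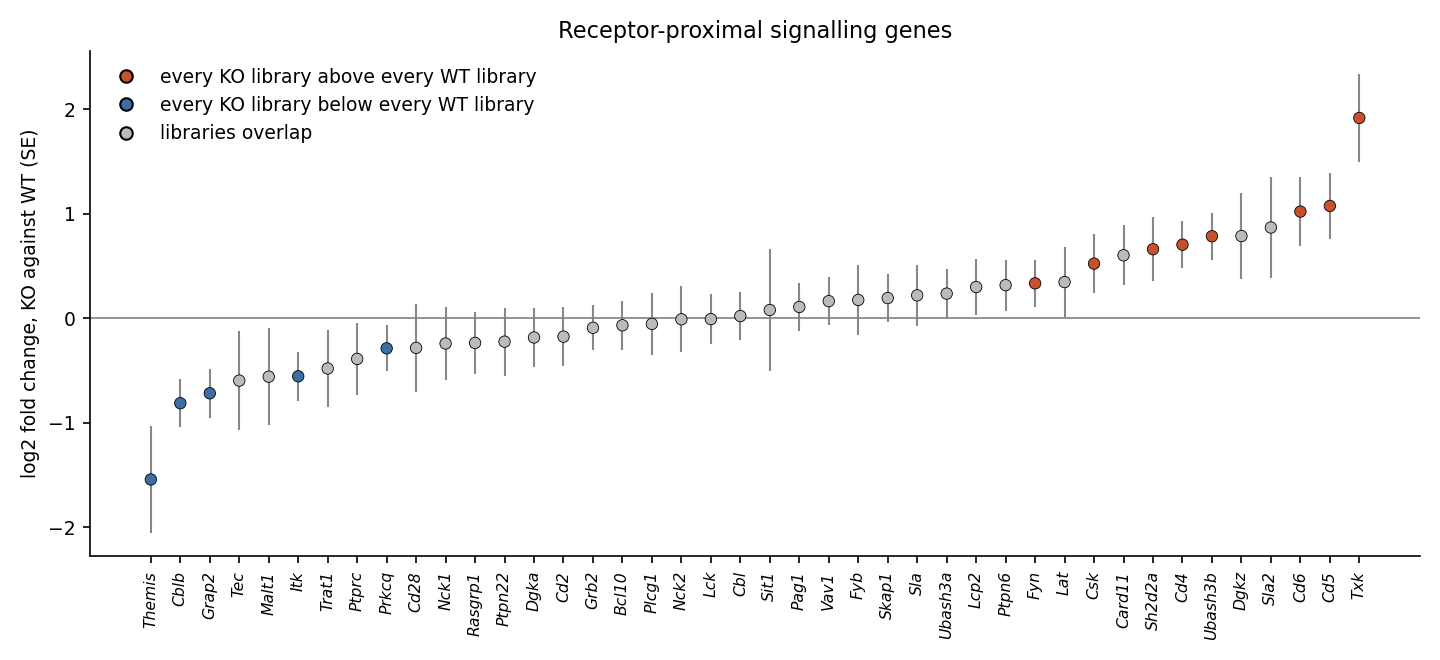
Log2 fold changes of KO against WT (vertical axis, bars give the SE) for 42 receptor-proximal signalling genes, ordered by value. Orange points mark the 8 genes with every KO library above every WT library, blue points the 5 with every KO library below, and grey points those that overlap.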

How the data were processed

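The authors deposited whole-number read counts per gene symbol, not normalized, and FPKM values, normalized by the authors for length and depth, with 1 column per library in each table. Per the file headers the aligner was STAR 2.4.2a, and the submitters' processing notes name mm9. The series' design text names the VIPER pipeline. How reads were assigned to genes and on which annotation was not found in the labels or headers. Of the counts, 0.271% stand in 26 entries that show a date in place of a symbol, and these were kept as unnamed genes.

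Groups and replicate numbers came from the sample titles. The main test was the quasi-likelihood F test of edgeR 4.0.16 (R 4.3.3), after filterByExpr (minimum count 10) and TMM scaling, with Benjamini-Hochberg adjustment over 11772 genes and a threshold of 0.05. SEs came from the F statistic. DESeq2 1.42.0 and limma 3.58.1 were alternatives, limma also on log2(FPKM + 1) and log2(FPKM + 0.1). The steps were tested on simulated data. Ratios used log2 CPM with a prior count of 0.5 and an exact permutation test. ITAM patterns and identities came from GENCODE M21 transcripts, aligned with Biopython 1.88. Because GENCODE is of another build, no coordinates are given. No pair of replicate libraries agreed within sampling noise (chi-square per degree of freedom 20.8 to 218). Counting precision is limited by depth: 3 counts are 0.109 to 0.295 CPM before scaling. The genes and lists were chosen with earlier results of these data known. The text names the 7 genes, Srsf1, the 3 genes with the smallest p in each direction of the pathway list, all measured partners and adaptors, and the 3 closest patterns to Fcer1g and Cd247. Lck, Lat, Lcp2, Pou2f1 and the cell type markers named were added as context after their values were seen.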

Additional observations from a re-analysis of the deposited data

How the results depend on the processing

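The log2 fold changes of Fcer1g (+2.15 to +3.09), Cd3e (+0.58 to +0.76) and Cd247 (+0.17 to +0.29) kept their direction under all 19 alternatives run, and that of Syk (+0.18 to +1.35) under 17. Syk did not pass the filter of 1 FPKM in 3 libraries. Fcer1g passed the threshold with DESeq2's Wald test (+2.59) and without both WT replicate 3, its highest WT library, and KO replicate 1 (+3.08). Cd3d changed sign without a filter (-0.0016) and without both of those libraries (-0.17), and ran from -0.21 to +0.17 with 1 library left out. With 1 library left out Fcer1g ran from +2.25 to +3.09. Cd3g ran from -0.015 to +0.15 (+0.22 without both of those libraries) and Zap70 from -0.053 to +1.05 with 1 library left out, and the log2 ratio of Cd247 to the CD3 chains from -0.099 to +0.016. The number of genes called over all tested genes, 2, became 6 without a filter, 129 with DESeq2, 1 with voom, 80 without both libraries, 0 with limma on log2(FPKM + 1) or log2(FPKM + 0.1) (1040 and 1033 at an unadjusted p under 0.05), and 0 to 3 with 1 library left out (509 to 1272 at an unadjusted edgeR p under 0.05). In the pathway list 1 gene, Txk, was called with DESeq2 and without both libraries. The cause of these changes was not tested.

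With the replicate number as a block, 1 gene was called over all genes (694 at an unadjusted p under 0.05), and 0 of the 7. The block gave +2.71 for Fcer1g (edgeR adjusted p = 0.235), +0.69 for Cd3e, +0.23 for Cd247, +0.07 for Cd3g, +0.01 for Cd3d, +0.50 for Zap70 and +0.91 for Syk. Paired ratio differences had exact sign-flip permutation p of 0.25 for Fcer1g to Cd247 (+2.49), the smallest possible, 0.75 for Syk to Zap70 (+0.38) and 1 for Cd247 to the CD3 chains (-0.03). Same-numbered libraries correlated in their deviations at -0.34, 0.15 and 0.14, and 1 of 6 libraries correlated best with its own number, so the number was not taken as a pairing.

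The low counts of Fcer1g in WT and of Syk in all libraries limit their precision, and 3 libraries per group allow no exact permutation p below 0.1. Nothing in the labels beyond the number of mice says how the animals were related.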
